A study of Homo sapiens with 15 samples.

Results

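The genes of cholesterol and fatty acid synthesis were followed in 15 bulk RNA-seq libraries of H9, an established line of human embryonic stem cells, collected on day 7 of differentiation toward bone. All 29 genes asked for by symbol were found among the 60675 genes of the deposited tables: 7 of the mevalonate route, 11 of squalene and sterol synthesis, 4 regulators or carriers of sterols and 7 of fatty acid synthesis and desaturation. All 29 passed the filter on low counts, among 19012 genes tested. The groups, of 3 libraries each, were cells exposed to SRM, which the labels call a NIST standard reference material, at its IC50 (5.9 µg/mL) or IC25 (0.003 µg/mL), cells exposed to FPM, fine particulate matter in the labels, at its IC50 (1.4 µg/mL) or IC25 (0.00062 µg/mL), and vehicle controls given 0.1% DMSO (UNT). All cultures were wild type and went through the same differentiation in serum medium and then with vitamin D, β-glycerophosphate and ascorbic acid. The labels give neither the source of the FPM nor the number of the SRM. They base the inhibitory concentrations on protein, and doses therefore differ between particles at 1 inhibitory level. No label states that the replicates came from separate cultures, so p-values cover only the spread between libraries, which may be technical.

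Cells build cholesterol from acetyl-CoA through mevalonate, isoprenoid diphosphates, squalene and lanosterol. The transcription factors SREBP, encoded by SREBF1 and SREBF2, switch on most of these genes and those of fatty acid synthesis when membrane sterol is low, and INSIG1 holds them in the endoplasmic reticulum when sterol is high. INSIG1 and the synthesis enzymes are themselves targets of SREBP, so their transcripts are commonly read together.

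Total counts per library ran from 9.34 to 58.2 M (M, mega). Transcripts associated with bone were mixed in level. In UNT, ALPL was at 83.0 to 97.0 CPM (counts scaled to library size), COL1A1 at 208 to 252 and SPP1 at 299 to 422. RUNX2 was at 4.82 to 5.91 CPM and SP7 at 0.764 to 0.896. The late markers were near 0 (BGLAP at 0.117 to 0.427 CPM and IBSP at 0 to 0.061). POU5F1, a pluripotency factor, was at 189 to 255 CPM in UNT, so the labelled cells were not mature bone cells. The libraries of FPM stood apart in the share of counts on antisense genes, which averaged 1.21% ± 0.252 in FPM IC50 and 1.07% ± 0.173 in FPM IC25, against 0.282% ± 0.0077 in UNT (SD, n = 3 each). Of the 29 genes, 14 have exons that overlap exons of a gene on the other strand, and since the strand setting of the counting is not stated, reads of such a pair cannot be told apart.

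The promoters of 4 of these genes are shown, because HMGCS1 and INSIG1 had the largest fold changes between groups among the 29, SCD had the highest level per length of them in UNT, and SREBF2 encodes the factor that acts on them. Each run holds 250 bases before and 50 after the RefSeq start (GRCh38.p14), 5′ to 3′ on the gene's own strand. HMGCS1 is at chr5:43313363-43313662 on the minus strand, INSIG1 at chr7:155297628-155297927, SREBF2 at chr22:41832855-41833154 and SCD at chr10:100346983-100347282, all on the plus strand. Capitals mark the sterol response core TCACNCCAC, the CCAAT box and the E-box CACGTG on either strand.
HMGCS1: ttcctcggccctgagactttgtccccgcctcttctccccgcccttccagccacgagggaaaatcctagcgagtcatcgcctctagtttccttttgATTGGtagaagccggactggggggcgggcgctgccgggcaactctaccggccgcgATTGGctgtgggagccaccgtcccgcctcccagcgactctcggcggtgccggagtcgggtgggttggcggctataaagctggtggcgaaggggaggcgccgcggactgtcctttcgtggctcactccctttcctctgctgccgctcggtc
INSIG1: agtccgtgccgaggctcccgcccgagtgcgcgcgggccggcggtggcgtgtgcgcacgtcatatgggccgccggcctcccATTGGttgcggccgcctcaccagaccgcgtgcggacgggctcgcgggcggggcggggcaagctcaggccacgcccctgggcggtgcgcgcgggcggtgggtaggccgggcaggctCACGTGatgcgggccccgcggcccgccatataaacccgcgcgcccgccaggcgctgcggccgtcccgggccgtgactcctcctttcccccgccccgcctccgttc
SREBF2: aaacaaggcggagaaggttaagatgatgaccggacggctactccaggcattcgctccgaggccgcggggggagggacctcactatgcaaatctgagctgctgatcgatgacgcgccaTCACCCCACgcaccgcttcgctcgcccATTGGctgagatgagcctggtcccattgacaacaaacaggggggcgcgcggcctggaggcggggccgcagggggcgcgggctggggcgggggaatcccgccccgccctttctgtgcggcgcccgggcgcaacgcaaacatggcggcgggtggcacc
SCD: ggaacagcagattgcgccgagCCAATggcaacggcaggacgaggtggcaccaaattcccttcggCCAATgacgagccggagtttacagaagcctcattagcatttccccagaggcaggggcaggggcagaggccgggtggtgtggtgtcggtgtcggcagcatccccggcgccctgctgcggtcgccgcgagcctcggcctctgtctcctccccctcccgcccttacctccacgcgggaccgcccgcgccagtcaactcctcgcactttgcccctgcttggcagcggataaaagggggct
The CCAAT box, the site of NF-Y, a common partner of SREBP, lay in 17 of the 25 promoters that RefSeq's table held for these genes, against 35.7% of all 27305 promoters in the table and 36.0% of those of genes tested here. The core TCACNCCAC lay in 1 of 25, that of SREBF2, where it begins 133 bases before the start, against 1.15% of all promoters. The E-box lay in 3 of 25 (LSS, SC5D and INSIG1), against 7.43% of all promoters, and the GC box GGGCGG in 23 of 25, against 44.6% of all promoters and 67.9% of those of genes tested. The 5-letter CCAAT and the 6-letter motifs match often by composition, and a match is a description of the letters only.

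Transcript levels between genes were compared per length, in FPKM, the authors' level scaled by gene length and depth, in UNT. SCD, the desaturase that makes monounsaturated fatty acids, was highest at 108 ± 17.3 FPKM, and its libraries lay above those of the next gene. ACLY, which supplies cytosolic acetyl-CoA, followed at 59.4 ± 9.14 FPKM, FDFT1, squalene synthase, at 56.9 ± 3.97 and HMGCS1, HMG-CoA synthase, at 52.7 ± 5.36 (SD, n = 3), and the libraries of these neighbours overlapped. FASN, fatty acid synthase, was at 39.0 ± 10.9 FPKM, and INSIG1 at 13.2 ± 0.488. SREBF2 was at 32.6 ± 5.19 FPKM, SREBF1 at 3.44 ± 0.361 and MVK, mevalonate kinase, at 2.95 ± 0.254. CYP51A1, lanosterol demethylase, was lowest at 0.626 ± 0.13 FPKM. Its level is uncertain, since 79.35% of its annotated exon bases are shared with 2 other genes on the same strand. HSD17B7, of the sterol demethylation steps, is uncertain too, since the 2 pseudogene copies listed beside it held counts equal to 11.6% of its own.

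**Figure D1:**
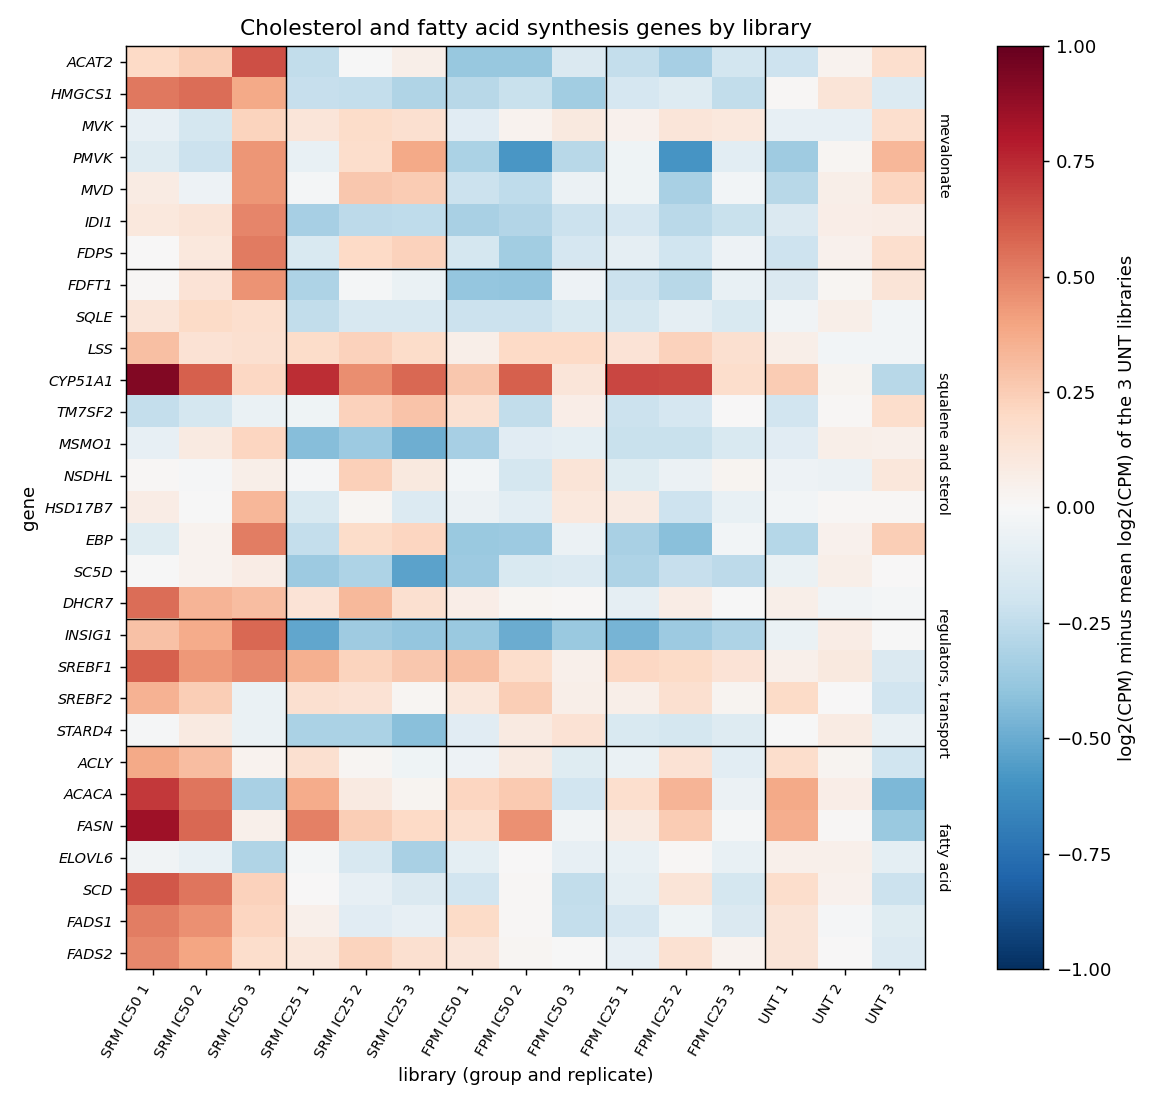
Each of the 29 genes (rows, by role) in each of the 15 libraries (columns, by group and replicate), as log2 CPM minus the mean log2 CPM of the 3 UNT libraries. The 3 SRM IC50 columns are mostly above UNT (red), INSIG1 is below UNT (blue) in all libraries of SRM IC25, FPM IC50 and FPM IC25, and FASN and ACACA vary widely within groups.

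SRM at its IC50 was set against UNT to ask what its higher dose changed. In SRM IC50, 7 of the 29 genes rose and none fell: HMGCS1, DHCR7, INSIG1, SREBF1, SCD, FADS1 and FADS2. They stood between 1.28-fold and 1.42-fold above UNT. Over all genes tested, 17.6% were called in this comparison and 7.96% were higher, by edgeR's quasi-likelihood test with Benjamini-Hochberg adjustment at 0.05. The median log2 fold change over the 29 genes was 0.21, and 26 of them were positive, against a median of 0.00 and 9409 positive of 19012 over all genes tested. The groups did not overlap in 11 of the 29 genes, all higher in SRM IC50, against 29.7% of all genes tested in either direction and 14.1% higher. Summed over the 29 genes, transcripts took 4840 to 5400 CPM in SRM IC50, 4060 to 4210 in SRM IC25, 3850 to 4100 in FPM IC50, 3900 to 4170 in FPM IC25 and 3920 to 4350 in UNT. In bulk samples such as these, fewer cells of a type and less RNA per cell cannot be told apart.

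Among the 7 genes of the mevalonate route, HMGCS1 alone was called. HMGCS1 (ENSG00000112972, 5:43289395-43313512, GRCh38) had 367, 374 and 330 CPM in SRM IC50, against 256, 278 and 231 CPM in UNT. All 3 exposed libraries lay above all 3 controls. The log2 change was 0.49 (SE 0.083, adjusted p = 4.99e-04, edgeR). ACAT2, the thiolase that opens the route, had 189, 195 and 258 CPM in SRM IC50, against 143, 169 and 185 CPM in UNT. The groups did not overlap, but the difference of 0.37 (SE 0.13) missed the threshold (adjusted p = 0.0571, edgeR), and genes on the other strand cover 52.27% of its exon bases. IDI1, the isomerase of the isoprenoid diphosphates, had 114, 116 and 149 CPM in SRM IC50, against 96.3, 111 and 112 CPM in UNT, also without overlap, a log2 change of 0.25 (SE 0.097, adjusted p = 0.0981, edgeR). The kinases MVK and PMVK, the decarboxylase MVD and the farnesyl diphosphate synthase FDPS were not called, with log2 fold changes between -0.02 and 0.22.

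Of the 11 genes of squalene and sterol synthesis, DHCR7, which reduces the last precursor to cholesterol, was the one called. DHCR7 (ENSG00000172893, 11:71428193-71452868) had 87.6, 75.2 and 73.5 CPM in SRM IC50, against 61.9, 58.0 and 58.5 CPM in UNT, with no overlap. The log2 change was 0.41 (SE 0.085, adjusted p = 0.00261, edgeR). The other 10 genes ran from -0.17 for TM7SF2, a sterol reductase, to 0.62 for CYP51A1, whose level is the uncertain one above, and none was called. Among them were EBP, a sterol isomerase, at 0.14 (SE 0.18) and SC5D, lathosterol oxidase, at 0.03 (SE 0.082), which act shortly before DHCR7, and MSMO1, a methylsterol oxidase of an earlier step, at 0.07 (SE 0.09).

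The regulators did not move as a block. INSIG1 (ENSG00000186480, 7:155297776-155310235) had 60.8, 64.3 and 73.9 CPM in SRM IC50, against 47.5, 52.2 and 49.4 CPM in UNT, a log2 change of 0.41 (SE 0.087, adjusted p = 0.003, edgeR). SREBF1 (ENSG00000072310, 17:17810399-17837002) had 43.0, 38.3 and 39.6 CPM in SRM IC50, against 29.4, 30.3 and 25.6 CPM in UNT, a log2 change of 0.50 (SE 0.09, adjusted p = 7.81e-04, edgeR). In both genes the groups did not overlap. RAI1 on the other strand covers 6.92% of the exon bases of SREBF1. RAI1 averaged 44.9 CPM in SRM IC50 and 47.2 CPM in UNT, above SREBF1 in both. The sum of both genes was 85.1 ± 11.1 CPM in SRM IC50, against 75.7 ± 8.72 CPM in UNT (SD, n = 3), a difference within 1 SD of SRM IC50. That sum carries the level and spread of RAI1, so it cannot show whether SREBF1 differed. SREBF2 had 320, 298 and 240 CPM in SRM IC50, against 287, 252 and 221 CPM in UNT, which overlap (log2 fold change 0.17, SE 0.11, adjusted p = 0.347, edgeR). STARD4, which carries sterol between membranes, had 53.6, 57.5 and 51.5 CPM in SRM IC50, against 53.9, 57.2 and 51.2 CPM in UNT, and its log2 change was 0.00 (SE 0.082). INSIG1 encodes a brake on SREBP and SREBF1 a form of SREBP itself, so the pair that rose holds members of opposite action.

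Within fatty acid synthesis the desaturases were called and the synthase steps were not. SCD (ENSG00000099194, 10:100347124-100364834) had 911, 858 and 694 CPM in SRM IC50, against 669, 610 and 510 CPM in UNT, a log2 change of 0.46 (SE 0.12, adjusted p = 0.0162, edgeR). FADS1 and FADS2, desaturases of polyunsaturated fatty acids that lie beside each other on chromosome 11, followed. FADS1 had 254, 244 and 207 CPM in SRM IC50, against 195, 177 and 164 CPM in UNT (log2 fold change 0.39, SE 0.11, adjusted p = 0.0197, edgeR). FADS2 had 403, 381 and 327 CPM in SRM IC50, against 317, 290 and 264 CPM in UNT (log2 fold change 0.35, SE 0.097, adjusted p = 0.0175, edgeR). The groups did not overlap in any of the 3 genes, but FADS1 and FADS2 overlap on opposite strands over 4.79% of the exon bases of FADS1, so part of their reads could be shared.

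FASN had a difference as large as that of SREBF1 and was not called. It had 640, 529 and 368 CPM in SRM IC50, against 456, 358 and 274 CPM in UNT, a log2 change of 0.50 (SE 0.2, adjusted p = 0.098, edgeR). ACACA, acetyl-CoA carboxylase, had 186, 165 and 90.8 CPM in SRM IC50, against 148, 119 and 83.4 CPM in UNT, a log2 change of 0.33 (SE 0.23). In both of these long genes replicate 3 was the lowest library of each group. Across the 29 genes, a library's deviation from the other libraries of its group correlated with gene length at Spearman 0.64 in SRM IC50 replicate 1 and -0.64 in replicate 3, and at 0.67 in UNT replicate 1 and -0.66 in replicate 3. The points of each correlation share 1 library, and the part of length in these results was not tested. ACLY and the elongase ELOVL6 had log2 fold changes of 0.24 and -0.13 and were not called.

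**Figure D2:**
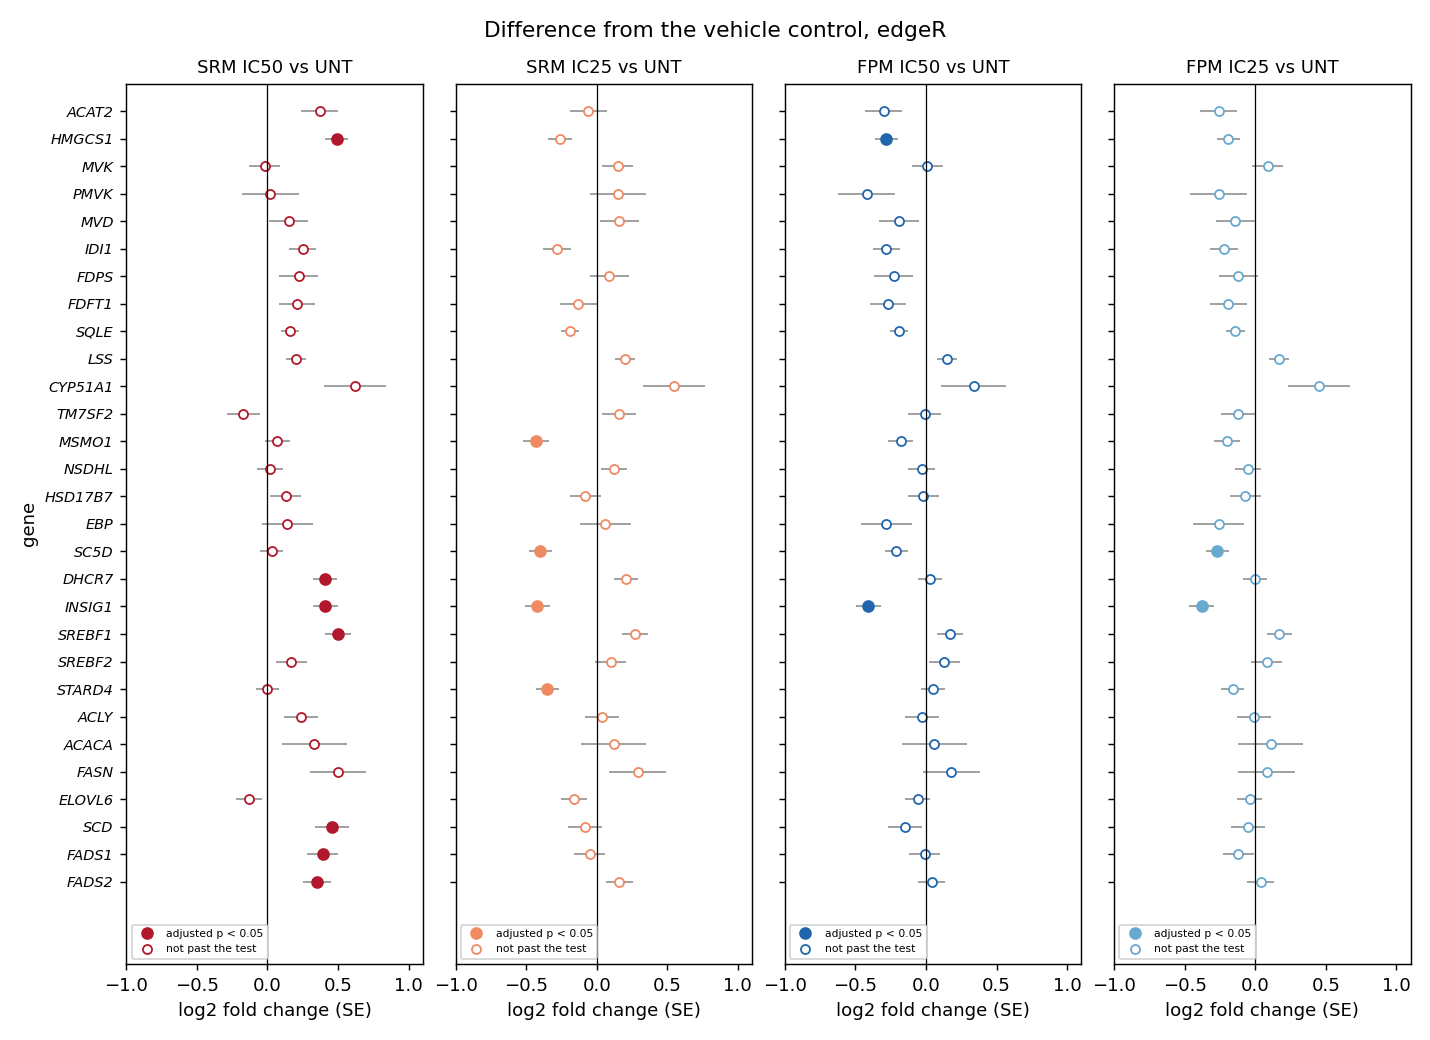
Log2 fold change against UNT (x axis) with its SE for the 29 genes (rows) in SRM IC50, SRM IC25, FPM IC50 and FPM IC25 (panels), filled where edgeR's adjusted p was under 0.05. In SRM IC50 the 7 filled genes lie to the right, and in the other panels the 4, 2 and 2 filled genes lie to the left.

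HMGCS1, DHCR7, INSIG1 and SREBF1 were called in all 18 alternatives run, while the count of calls moved with single libraries. Without SRM IC50 replicate 2 the count was 4, and without SRM IC50 replicate 3, the library low in long genes, it was 11. SCD, FADS1 and FADS2 were each lost in at least 5 alternatives.

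Markers of cell state moved with the same comparison. Of 12 pluripotency markers, 8 were higher in SRM IC50 and none lower, and their summed level was 3120 to 3590 CPM in SRM IC50, against 2050 to 2270 CPM in UNT. All 12 markers of amnion and trophoblast were lower, with sums of 385 to 426 CPM in SRM IC50, against 1480 to 1720 CPM in UNT. All 9 markers of simple epithelium were lower as well, with sums of 3010 to 4020 CPM in SRM IC50, against 6690 to 9060 CPM in UNT. Of 8 neuroectoderm markers 1 was higher and 5 lower, with sums of 266 to 278 CPM in SRM IC50, against 421 to 461 CPM in UNT. Of 8 mesenchyme markers 2 were higher and 3 lower, with sums of 538 to 696 CPM in SRM IC50, against 760 to 796 CPM in UNT. None of these markers was at 0 throughout a group. Of 5 adipocyte markers none passed the filter; they summed to at most 0.305 CPM in SRM IC50, where FABP4 was at 0 in every library, and to at most 0.488 CPM in UNT, where ADIPOQ, FABP4 and LEP were. The part of the shift in markers in the values of the synthesis genes was not tested.

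Other genes of sterol and lipid handling, taken from lists by pathway, held calls in both directions in SRM IC50. Of 10 genes that process or degrade SREBP and its partners, 1 was higher, UBE2G2, a ubiquitin-conjugating enzyme, with a log2 change of 0.27 (SE 0.074), and the median was -0.08 with 3 of 10 positive. Of 12 genes of the isoprenoid branch, which makes dolichol, ubiquinone and protein prenyl groups, none was called in SRM IC50, and the median was 0.03 with 8 of 12 positive. Of 12 genes of sterol export and the sterol receptor LXR, 2 were higher and 2 lower, with a median of 0.09 and 8 of 12 positive. The difference between these lists and the synthesis genes was not tested. SCARB1, a lipoprotein receptor, had 38.5, 36.5 and 30.2 CPM in SRM IC50, against 23, 20.7 and 22.6 CPM in UNT (log2 fold change 0.67, SE 0.1). SMPDL3A and MYLIP, known LXR targets, had log2 fold changes of -1.28 (SE 0.21) and -0.56 (SE 0.1). Other LXR targets in the list did not fall. ABCA1 was at 17.4 ± 4.27 CPM in SRM IC50, against 16.1 ± 4.27 CPM in UNT (SD, n = 3). ABCG1 was at 0.563 ± 0.198 against 0.507 ± 0.121 CPM, and LPCAT3 at 35.9 ± 1.69 against 33.7 ± 1.84 CPM, in the same groups.

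Of 21 further genes of lipid synthesis, 1 was higher and 4 lower in SRM IC50, with a median of -0.03. The lower ones with the largest change were ACSL1, which activates fatty acids, at -0.79 (SE 0.16), SCD5, a second stearoyl-CoA desaturase, at -0.56 (SE 0.1), and ELOVL1, an elongase, at -0.51 (SE 0.093). SCD5 had 19.5, 20 and 17.6 CPM in SRM IC50, against 27.7, 26.1 and 30.7 CPM in UNT, the opposite direction to SCD.

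Among these pathway lists the largest changes were in genes that turn cholesterol into steroids. Of the 8 tested of 9, 1 was higher and 5 were lower in SRM IC50, and CYP17A1 was at 0 in every library of SRM IC50 and of UNT. CYP19A1, aromatase, had 0.712, 0.713 and 0.703 CPM in SRM IC50, against 21.7, 18.7 and 22.9 CPM in UNT (log2 fold change -4.88, SE 0.24, adjusted p = 4.36e-09, edgeR). HSD3B1 and STS, a hydroxysteroid dehydrogenase and the steroid sulfatase, had log2 fold changes of -3.36 (SE 0.23) and -2.59 (SE 0.12). CYP19A1 is also among the amnion and trophoblast markers above, and all 3 are known as enzymes of the placenta.

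SRM at its IC25 was set against the same UNT libraries. In SRM IC25, 4 of the 29 genes fell and none rose: MSMO1, SC5D, INSIG1 and STARD4. Over all genes tested 4.37% were called and 3.38% were lower. MSMO1 (ENSG00000052802, 4:165327623-165343160) had 82.9, 86.4 and 79.2 CPM in SRM IC25, against 103, 116 and 115 CPM in UNT (log2 fold change -0.43, SE 0.091, adjusted p = 0.0255, edgeR). SC5D (ENSG00000109929, 11:121292453-121308694) had 79.5, 83.0 and 70.6 CPM in SRM IC25, against 97.8, 107 and 103 CPM in UNT (log2 fold change -0.40, SE 0.082, adjusted p = 0.0233, edgeR). INSIG1 had 34.7, 38.9 and 37.9 CPM in SRM IC25 (log2 fold change -0.42, SE 0.088, adjusted p = 0.0252, edgeR), and STARD4 had 43.4, 43.3 and 40.5 CPM (log2 fold change -0.35, SE 0.083, adjusted p = 0.0307, edgeR). In each of the 4 genes every SRM IC25 library lay below every UNT library.

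These calls rest on the settings. With a correction for the GC content of the genes edgeR called none of the 29 and none of all 19012 genes. In that fit 5 of the 29 and 1418 of all genes had an unadjusted p under 0.05. DESeq2, without that correction, called 8 of the 29, in both directions, and 2007 of the 11495 genes that it tested. LSS (log2 fold change 0.21) and SREBF1 (0.28) were higher with DESeq2, and the others lower. At the weakest over all alternatives MSMO1 was at -0.19, SC5D at -0.17, INSIG1 at -0.37 and STARD4 at -0.07. STARD4 was kept in the fewest alternatives, 5 of 18, against 8 for MSMO1, 9 for SC5D and 8 for INSIG1. No call among the 29 was left without the FPM libraries, without UNT replicate 2, without UNT replicate 3, without SRM IC25 replicate 2 or without SRM IC25 replicate 3, and 1 was left without SRM IC25 replicate 1. The median over the 29 genes was 0.06, against 0.02 over all genes tested, and -0.05 against 0.01 with the GC correction. Pluripotency markers summed to 1620 to 1660 CPM in SRM IC25, against 2050 to 2270 CPM in UNT, with 4 of 12 lower; their part in these values was not tested.

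FPM was set against UNT at both doses. In FPM IC50, HMGCS1 and INSIG1 fell, 2 of 29, with 13.6% of all genes tested called and 2.77% lower. In FPM IC25, SC5D and INSIG1 fell, again 2 of 29, with 14.2% of all genes called and 3.51% lower. INSIG1 had 38.5, 35.3 and 38.5 CPM in FPM IC50 and 35.9, 38.6 and 40.0 CPM in FPM IC25, against 47.5, 52.2 and 49.4 CPM in UNT. Its log2 change was -0.41 (SE 0.089, adjusted p = 0.00353, edgeR) in FPM IC50 and -0.38 (SE 0.088, adjusted p = 0.00661, edgeR) in FPM IC25. All 6 libraries lay below all 3 controls, and the call held in all 17 alternatives at each dose. INSIG1 has no exon overlap with a gene on the other strand.

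HMGCS1 had 210, 218 and 200 CPM in FPM IC50, against 256, 278 and 231 CPM in UNT (log2 fold change -0.28, SE 0.083, adjusted p = 0.0293, edgeR). The groups did not overlap, but an opposite-strand gene, ENSG00000261604, covers 14.95% of its exon bases. That gene averaged 28.6 CPM in FPM IC50 and 22.7 CPM in FPM IC25, against 0.0971 CPM in UNT. The sum of HMGCS1 and its partner was 238 ± 8.85 CPM in FPM IC50, against 255 ± 23.3 CPM in UNT (SD, n = 3), a difference within 1 SD of UNT. Whether reads of HMGCS1 were counted for the partner was not tested. The call was kept in 5 of 17 alternatives.

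SC5D, which no opposite gene overlaps, had 82.8, 87.4 and 85.3 CPM in FPM IC25, against 97.8, 107 and 103 CPM in UNT (log2 fold change -0.27, SE 0.082, adjusted p = 0.0376, edgeR), and this call was kept in 4 of 17 alternatives. Among genes whose exons overlap an opposite gene, 25.1% were called in FPM IC50 against UNT, and 4.97% among the others. STARD4 had 50, 57.6 and 59.9 CPM in FPM IC50, against 53.9, 57.2 and 51.2 CPM in UNT, while its antisense gene STARD4-AS1 averaged 59.3 CPM in FPM IC50, against 1.5 CPM in UNT. FDPS was not called, and its partner RUSC1-AS1 averaged 39.3 CPM in FPM IC50, against 1.33 CPM in UNT. Pluripotency markers summed to 1590 to 1940 CPM in FPM IC50 and 1540 to 1580 CPM in FPM IC25, against 2050 to 2270 CPM in UNT, with 3 and 6 of 12 lower. Of 8 neuroectoderm markers none was called in FPM IC50 and 6 were lower in FPM IC25, with sums of 329 to 494 CPM in FPM IC50 and 194 to 301 CPM in FPM IC25, against 421 to 461 CPM in UNT. Of 8 mesenchyme markers 4 were higher in FPM IC25, with sums of 930 to 954 CPM, against 760 to 796 CPM in UNT. Of 12 amnion and trophoblast markers 4 were higher in FPM IC50, with sums of 1380 to 2120 CPM, against 1480 to 1720 CPM in UNT. The part of these markers in the FPM values was not tested.

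Across the 4 exposures, which share the UNT libraries, INSIG1 was the gene called in each, higher in SRM IC50 and lower in SRM IC25, FPM IC50 and FPM IC25. SREBF1 had log2 fold changes of 0.50, 0.27, 0.17 and 0.17 in SRM IC50, SRM IC25, FPM IC50 and FPM IC25, of which the first passed the test. SREBF2 had 0.17, 0.10, 0.13 and 0.08 in the same groups, and none passed.

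**Figure D3:**
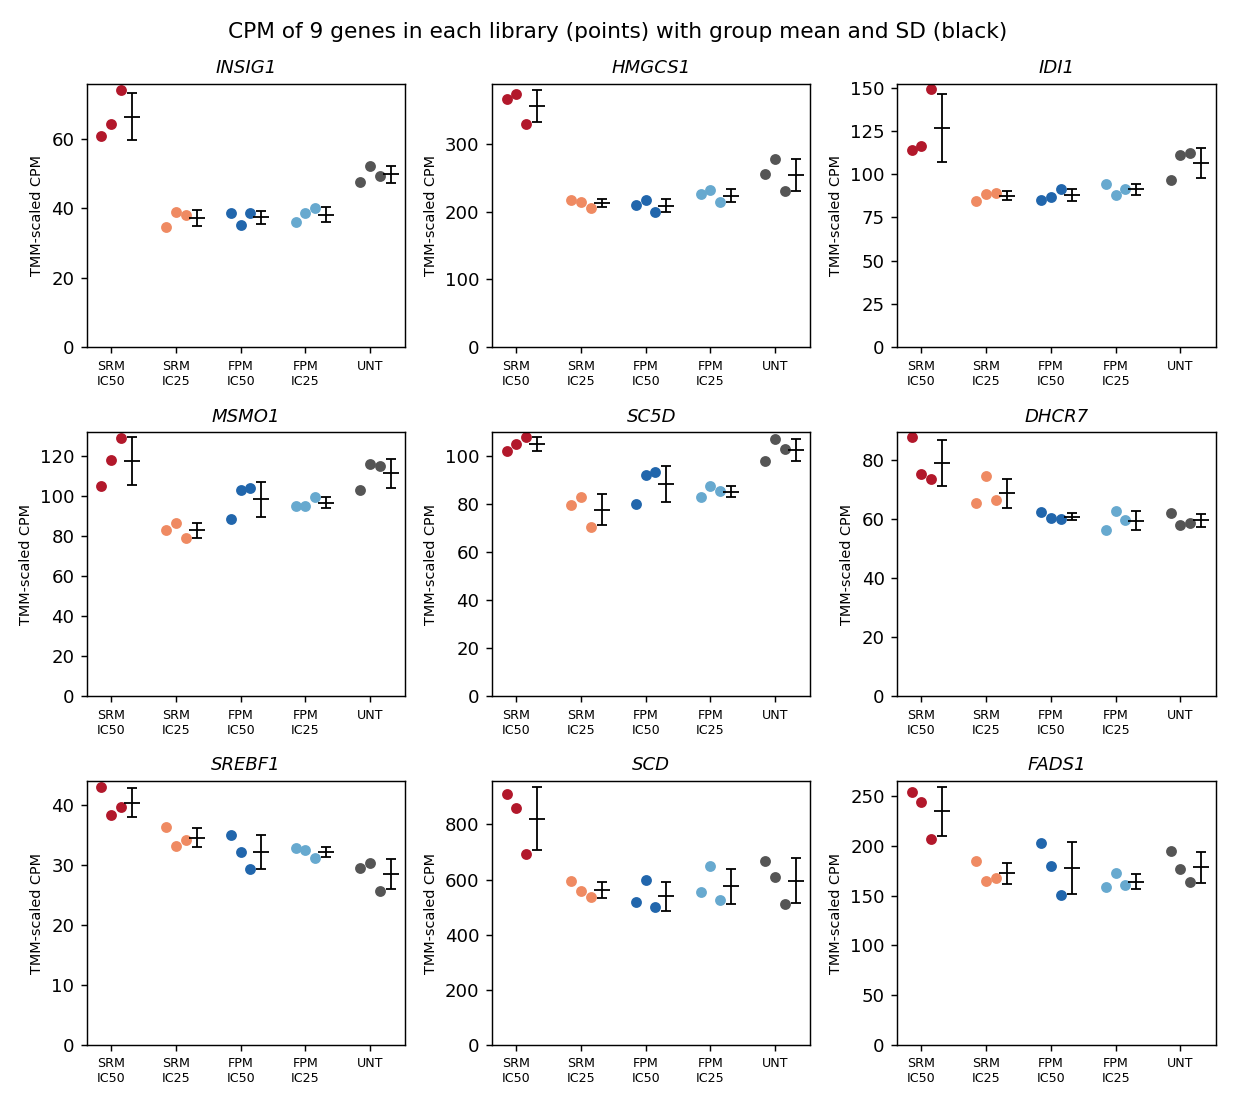
CPM of 9 genes in each library (points) by group, with the group mean and SD in black and axes that start at 0. INSIG1 and HMGCS1 are highest in all 3 SRM IC50 libraries, and INSIG1 lies below all UNT libraries in the 3 other exposures.

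The 2 doses of each particle were then compared with each other. Between SRM IC50 and SRM IC25, 10 of 29 genes were higher at the IC50 and none lower, with 26.9% of all genes tested called and 13.7% higher. INSIG1 had 60.8, 64.3 and 73.9 CPM in SRM IC50, against 34.7, 38.9 and 37.9 CPM in SRM IC25, 1.78-fold (log2 fold change 0.83, SE 0.088, adjusted p = 4.11e-06, edgeR). HMGCS1 had 367, 374 and 330 CPM in SRM IC50, against 217, 215 and 206 CPM in SRM IC25, 1.68-fold (log2 fold change 0.75, SE 0.083, adjusted p = 6.41e-06, edgeR). In both genes the lowest IC50 library lay well above the highest IC25 library.

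SCD had 911, 858 and 694 CPM in SRM IC50, against 593, 559 and 535 CPM in SRM IC25 (log2 fold change 0.55, SE 0.12, adjusted p = 0.00388, edgeR). IDI1 had 114, 116 and 149 CPM in SRM IC50, against 84.5, 88.7 and 89.0 CPM in SRM IC25 (log2 fold change 0.53, SE 0.097, adjusted p = 7.60e-04, edgeR). The other 6 called were ACAT2, SQLE, which epoxidises squalene, MSMO1, SC5D, STARD4 and FADS1, between 0.34 and 0.50. They spread over all 4 roles: 3 of 7 genes of the mevalonate route, 3 of 11 of sterol synthesis, 2 of 4 regulators and carriers and 2 of 7 of fatty acid synthesis. Calls of 7 of the 10 held in all 18 alternatives, and STARD4 was at 0.13 at the weakest. TM7SF2 had the lowest value, -0.33 (SE 0.12, adjusted p = 0.056, edgeR).

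Between these doses 11 of 12 pluripotency markers were higher, with sums of 3120 to 3590 CPM in SRM IC50, against 1620 to 1660 CPM in SRM IC25. All 12 amnion and trophoblast markers were lower, with sums of 385 to 426 CPM in SRM IC50, against 1400 to 1690 CPM in SRM IC25. Simple epithelium markers were lower in 8 of 9, with sums of 3010 to 4020 CPM in SRM IC50, against 7970 to 9550 CPM in SRM IC25. Neuroectoderm markers were lower in 5 of 8 and mesenchyme markers in 4 of 8, and none was higher. Their part in the values of the synthesis genes was not tested.

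Between FPM IC50 and FPM IC25 none of the 29 genes was called by edgeR or by DESeq2, with 0.0105% of all genes tested called, and 1 of the 29 had an unadjusted p under 0.05 with either tool. The log2 fold changes ran from -0.16 to 0.20, with a median of -0.02. INSIG1 was at -0.04 (SE 0.09) and HMGCS1 at -0.10 (SE 0.083).

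The step between doses was tested for a difference between particles, as the log2 change of SRM minus that of FPM. It was larger for SRM in 7 of 29 genes and smaller in none, with 14.6% of all genes tested called and 6.59% larger. INSIG1 differed by 0.87 (SE 0.13, adjusted p = 2.12e-04, edgeR) and HMGCS1 by 0.85 (SE 0.12, adjusted p = 1.38e-04, edgeR). SCD differed by 0.64 (SE 0.18, adjusted p = 0.0223, edgeR) and IDI1 by 0.58 (SE 0.14, adjusted p = 0.00931, edgeR). SQLE, MSMO1 and SC5D were also called. Without FPM IC50 replicate 1 the count was 4, and HMGCS1, IDI1 and INSIG1 were called in all 23 alternatives.

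**Figure D4:**
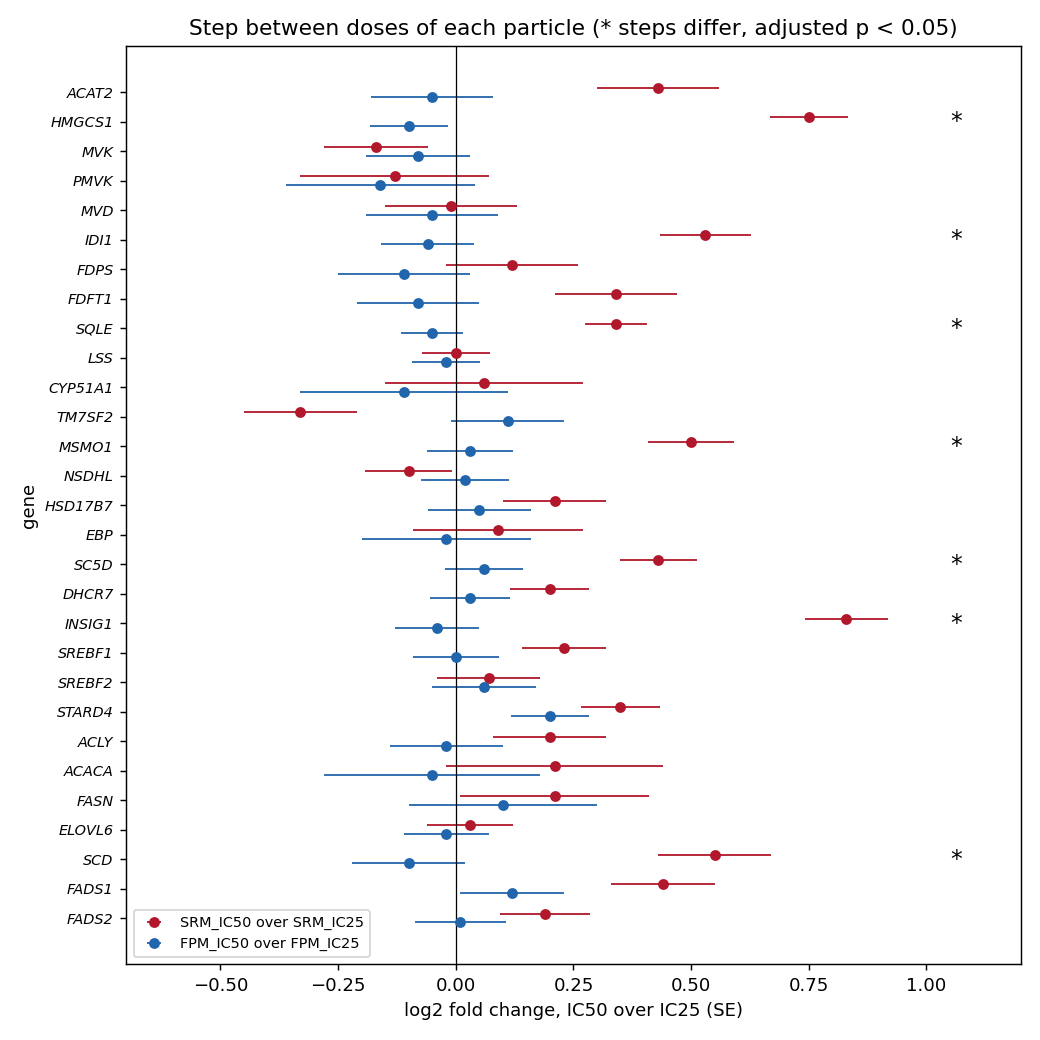
Log2 fold change of IC50 over IC25 (x axis) with its SE for each of the 29 genes (rows) in SRM (red) and FPM (blue), with a star where the steps differ at adjusted p under 0.05. The 7 starred genes lie right of 0 in SRM, between 0.34 and 0.83, and between -0.10 and 0.06 in FPM.

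The particles were last compared at the same inhibitory level, where doses differ. At the IC50, 14 of 29 genes were higher in SRM than in FPM and none lower, with 39.3% of all genes tested called and 16.2% higher. INSIG1 had 60.8, 64.3 and 73.9 CPM in SRM IC50, against 38.5, 35.3 and 38.5 CPM in FPM IC50 (log2 fold change 0.82, SE 0.089, adjusted p = 1.67e-06, edgeR). HMGCS1 had 367, 374 and 330 CPM in SRM IC50, against 210, 218 and 200 CPM in FPM IC50 (log2 fold change 0.77, SE 0.083, adjusted p = 1.58e-06, edgeR). Summed with its opposite-strand partner, HMGCS1 was at 357 ± 23.5 CPM in SRM IC50, against 238 ± 8.85 CPM in FPM IC50 (SD, n = 3), a difference larger than either SD. FDPS, summed with RUSC1-AS1, was at 214 ± 42.2 CPM in SRM IC50, against 195 ± 20.3 CPM in FPM IC50 (SD, n = 3), within 1 SD. SREBF1, summed with RAI1, was at 85.1 ± 11.1 CPM in SRM IC50, against 87.1 ± 11.9 CPM in FPM IC50 (SD, n = 3), also within 1 SD. RAI1 itself averaged 44.9 CPM in SRM IC50 and 55 CPM in FPM IC50, so its sum cannot show whether SREBF1 differed.

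ACAT2 had 189, 195 and 258 CPM in SRM IC50, against 127, 127 and 149 CPM in FPM IC50 (log2 fold change 0.67, SE 0.13, adjusted p = 4.93e-04, edgeR). SCD had 911, 858 and 694 CPM in SRM IC50, against 519, 598 and 499 CPM in FPM IC50 (log2 fold change 0.61, SE 0.13, adjusted p = 9.60e-04, edgeR). None of these 4 genes had overlapping groups. IDI1, FDPS, FDFT1, SQLE, MSMO1, SC5D, DHCR7, SREBF1, FADS1 and FADS2 were the other 10, between 0.25 and 0.52, and 8 of the 14 calls held in all 17 alternatives. MSMO1 and SC5D were lost in most, with 6 and 7 of 17 kept. Beside these, 10 of 12 pluripotency markers were higher and all 12 amnion and trophoblast and all 9 simple epithelium markers lower in SRM IC50 than in FPM IC50. Of the 8 neuroectoderm markers 2 were higher and 5 lower, and of the 8 mesenchyme markers 3 were higher and 4 lower. The part of these markers was not tested.

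At the IC25 none of the 29 genes differed between SRM and FPM by edgeR or by DESeq2, with 10.5% of all genes tested called, while 4 had an unadjusted p under 0.05 with either tool. The log2 fold changes ran from -0.22 for MSMO1 to 0.41 for PMVK, and INSIG1 was at -0.04 (SE 0.088).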

How the data were processed

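RNA-seq read counts per gene were used as deposited. Per the submitters' processing notes, the authors used FastQC 0.11.7, HISAT2 2.2.1 with GRCh38, SAMtools 1.10, featureCounts of Subread 2.0.15 and DESeq2. Neither the strandedness used in counting nor the annotation release is stated in these sources. The authors also deposited FPKM values, used for levels between genes and for alternatives. Per the labels' protocols, libraries were made from polyadenylated RNA with a directional kit.

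In R 4.3.3, edgeR 4.0.16 fitted 5 group means to the counts of all 15 libraries by robust quasi-likelihood, after filterByExpr and TMM scaling, with Benjamini-Hochberg adjustment over 19012 genes and a threshold of 0.05. CPM values are TMM-scaled, and folds are log2 with SE. Samples were grouped by their titles. Coordinates and strand overlaps came from GENCODE release 29 on GRCh38, which placed 57055 of the 60675 genes. The fit was tested on simulated data. The alternatives tried included DESeq2 1.42.0, edgeR with size factors from DESeq2, TMM from genes without opposite-strand exon overlap, no filter, the replicate number as a block, a GC correction, the compared groups only, limma 3.58.1 on FPKM with pseudocounts of 1 and 0.1, and each library left out. The fit without FPM libraries was added after seeing the data.

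The 29 genes and all lists were chosen with earlier results of these data known. Per-library values are given for called genes with the largest fold in each role (up to 4, and all 4 regulators) in SRM IC50 against UNT, and for up to 4 called genes in other comparisons. From each list of pathway genes, up to 3 called ones are named. The result of a further list is not reported here. The bone markers, and the values of ACAT2, IDI1, FASN and ACACA in SRM IC50, were added after their values were seen. Total counts per library were 9.34 to 58.2 M. Every replicate pair differed beyond sampling noise (lowest chi-square per gene 5.28), so all libraries were kept.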

Additional observations from a re-analysis of the deposited data

Results flagged for a closer look

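The step between doses differed between SRM and FPM in 7 of the 29 genes. The test was of that difference (log2 change of SRM minus that of FPM, edgeR, Benjamini-Hochberg adjustment). Over all 19012 genes tested, 14.6% were called in it, 1253 larger for SRM and 1522 smaller. The difference was 0.87 for INSIG1 (adjusted p = 2.12e-04), 0.85 for HMGCS1 (adjusted p = 1.38e-04), 0.64 for SCD (adjusted p = 0.0223) and 0.58 for IDI1 (adjusted p = 0.00931). It was 0.47 for MSMO1 (adjusted p = 0.0208), 0.40 for SQLE (adjusted p = 0.00952) and 0.38 for SC5D (adjusted p = 0.04). In all 7 genes the 3 SRM IC50 libraries lay above the 3 SRM IC25 libraries, as they did in 12 of the 29. The 7 were picked by a test on these same libraries, so this separation is no further support. Markers of cell state were called in the same test, with 8 of 12 pluripotency markers larger for SRM, and 11 of 12 amnion and trophoblast, 8 of 9 simple epithelium and 5 of 8 neuroectoderm markers smaller. Their part in these values was not tested.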

How the results depend on the processing

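No result reversed. In SRM IC50 against UNT, the 7 calls became 4 with the compared groups only or with unfiltered FPKM, and 4 to 11 with a library left out. They became 10 with DESeq2 or with no filter, 9 with filtered FPKM at either pseudocount and 8 with size factors from DESeq2. In SRM IC25 against UNT, the 4 calls, all lower, became 8 with DESeq2, of which LSS and SREBF1 were higher. Among all genes, calls in that comparison were 831 of 19012 with edgeR and 2007 of 11495 with DESeq2. They became 0 with the GC correction, with the compared groups only, with unfiltered FPKM or without the FPM libraries, and 0 to 4 with a library left out. In FPM IC50 against UNT, the 2 calls became 1 with TMM from genes without opposite-strand overlap, with the GC correction, with the compared groups only and with unfiltered FPKM. They became 3 with DESeq2 and 1 to 2 with a library left out. In FPM IC25 against UNT, the 2 calls became 1 with that TMM, with no filter, with the GC correction and with the compared groups only. They became 3 with DESeq2 and 1 to 2 with a library left out. Between SRM IC50 and FPM IC50, the 14 calls became 9 with FPKM at either pseudocount and 8 unfiltered. They became 16 in edgeR with no filter and 11 to 14 with a library left out. Between SRM IC25 and FPM IC25, 1 gene was called with no filter and 1 with each FPKM setting. For the step between doses, the 7 calls became 4 to 8 with a library left out. The cause of these changes was not tested.

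Deviations from the group means were correlated between libraries of different groups. Same-numbered libraries correlated at -0.14 to 0.438 (median 0.16), 16 of 30 pairs over 0.1. Differently numbered ones correlated at -0.444 to 0.273 (median -0.0784), 11 of 60 pairs over 0.1. Of 15 libraries, 9 correlated best with their own number. Same-numbered libraries were thus more alike, but what the numbers stand for is not stated, and the main fit has no block for them. With the replicate number as a block, the calls were 13 in SRM IC50, 8 in SRM IC25, 6 in FPM IC50 and 3 in FPM IC25 against UNT. They were 2 between the particles at IC25, 11 for the step between doses, 18 between the particles at IC50 and 13 between the SRM doses. With the block and the GC correction they were 13, 0, 7, 5, 1, 10, 19 and 14 in the same order. Calls over all 19012 genes tested rose with the block too, to 4390, 2718, 3649, 4079, 2963, 4043, 8914 and 6670 in that order. Without the block these were 3337, 831, 2585, 2693, 1995, 2775, 7476 and 5115. Over single genes, 86 values under an alternative lost the call with the direction kept and 441 stayed on the same side of the threshold; with a library left out these were 71 and 247. With 3 libraries a group, genes not called may still differ.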

Other observations

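The libraries numbered 3 were low in long genes in all 5 groups. Over the 29 genes, the Spearman correlation of a library's deviation from the others of its group with gene length was -0.64 in SRM IC50 replicate 3, -0.57 in SRM IC25 replicate 3, -0.59 in FPM IC50 replicate 3, -0.61 in FPM IC25 replicate 3 and -0.66 in UNT replicate 3. Over all 19012 genes tested it lay between -0.41 and -0.20 in the same libraries. SRM IC25 replicate 2 was low as well, at -0.50 over the 29 genes and -0.28 over all genes tested. FPM IC25 replicate 1 and FPM IC50 replicate 1 were at -0.15 over all genes tested, and at -0.05 and 0.11 over the 29. The points of each correlation share 1 library, and the deviations within a group of 3 are not independent.

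INSIG1 averaged 66.3 CPM in SRM IC50, 37.2 in SRM IC25, 37.4 in FPM IC50, 38.2 in FPM IC25 and 49.7 in UNT. The summed pluripotency markers had medians of 3210 CPM in SRM IC50, 1660 in SRM IC25, 1780 in FPM IC50, 1570 in FPM IC25 and 2150 in UNT. Both were highest in SRM IC50 and second in UNT. Below UNT the INSIG1 libraries of SRM IC25, FPM IC50 and FPM IC25 overlapped (SD 2.15, 1.81 and 2.09, n = 3 each), so these groups cannot be ordered. The marker medians were next in FPM IC50 and lowest in FPM IC25, though the sums of FPM IC50 and SRM IC25 overlapped. A link between INSIG1 and the markers was not tested.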
